A study of Mus musculus with 10 samples.

Results

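Genes that act on the salt and water of luminal fluid were followed in whole uterine tissue of pregnant mice at GD 3.5. They were Clca1, Clca2, Clca3a1, Clca3a2, Clca3b, Cftr, Scnn1a, Scnn1b, Scnn1g and Sgk1, 10 of the 45706 genes listed in the count matrix, and all 10 were among the 25146 genes tested. The genes were selected on how they had differed between the genotypes in these same uteri, so their own fold changes are given below as a description, with no test. Each row was found through its Ensembl identifier in the GRCm38 annotation. The controls were 5 adult Arid1a f/f females, in which both Arid1a alleles are floxed and the labels give no Cre. The mutants were 5 adult Ltf iCre/+ Arid1a f/f females, which carry the same floxed alleles plus 1 Ltf allele that expresses an improved Cre recombinase. Ltf iCre acts in the endometrial epithelium of adult females, and the Ltf promoter is also used by myeloid cells such as neutrophils. Females of both genotypes were mated and sampled on the third morning after the vaginal plug, and each library holds RNA of 1 uterus, taken without separating its cell types. Fewer cells of a type and less RNA per cell therefore cannot be told apart in any value below. Nothing in the labels ties a replicate number in one genotype to the same number in the other.

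The uterine epithelium sets the volume and ion content of the fluid in which the blastocyst lies. Chloride leaves the cell apically through channels such as CFTR, a chloride and bicarbonate channel opened by protein kinase A, and water follows. The epithelial sodium channel, built from an alpha, a beta and a gamma subunit (Scnn1a, Scnn1b and Scnn1g), takes sodium and water back up, and the kinase SGK1 keeps that channel at the surface by holding off the ubiquitin ligase NEDD4L. CLCA proteins were named as calcium-activated chloride channels but are now known as secreted or shed proteins that act on channels made by other genes, so only Cftr and the 3 Scnn1 genes encode pore subunits here. Mouse CLCA1 is a product of mucous cells of gut and airway. Closure of the uterine lumen around the time of implantation is known to involve fluid uptake through the sodium channel.

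The 10 libraries held 59296537 to 72702411 counts. At this depth 3 counts correspond to between 0.0418 and 0.0507 CPM (counts scaled to the library total after correction by its TMM factor), the unit used below for levels, and these floors cover counting error only. Arid1a itself was at 192 to 251 CPM in the controls and at 165 to 208 CPM in the mutants, and the ranges overlapped (log2 fold change -0.20 ± 0.09 SE, Benjamini-Hochberg adjusted p = 0.201 by the quasi-likelihood test of edgeR, which also gave every adjusted p below). Arid1a counts of whole tissue, which include the cells without Cre, thus did not separate the genotypes. Each of the 10 uterine markers was detected, among them Pgr at 239 to 417 CPM. The summed level of 10 epithelial markers was 843 to 1125 CPM in the controls and 1238 to 2636 CPM in the mutants, higher in 5 of 5 mutants than in any control. The part of this difference in the values of the 10 genes was not tested, and levels relative to this sum are given further below.

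Of the 10 genes, 6 passed an adjusted p of 0.05 in the fit across all genes, 4 of them higher in the mutants (Clca1, Clca3a2, Clca3b and Cftr) and 2 lower (Clca2 and Clca3a1). Across all genes tested 9.70% passed, 5.19% higher and 4.51% lower. The genotypes did not overlap in 4 of the 10, against 10.7% of all genes tested. Since the genes were chosen by this contrast, nothing is read from these counts. The median log2 fold change over the 10 was 1.58, and over all genes tested it was 0.03.

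**Figure D1:**
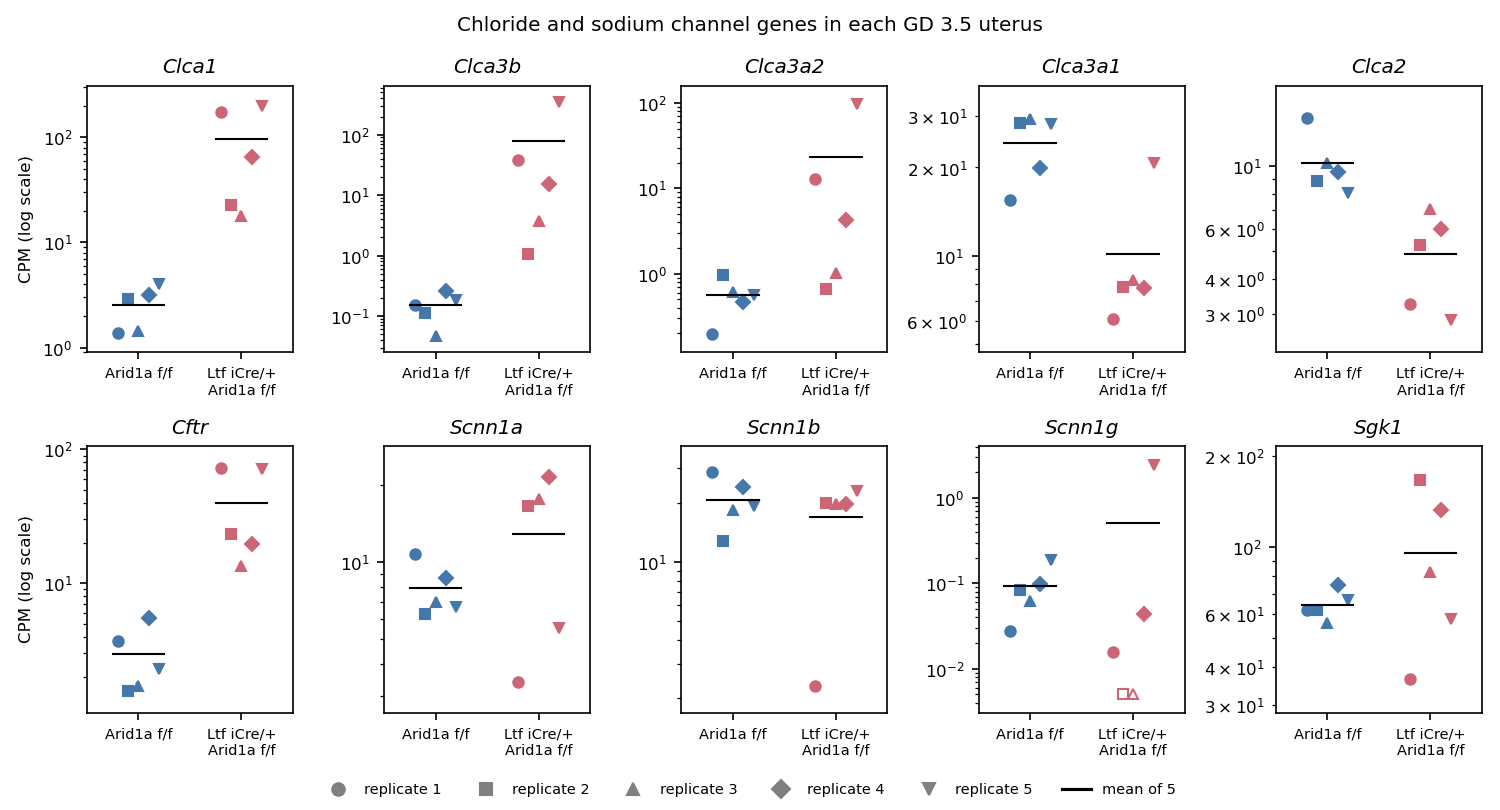
Level of each of the 10 genes in every uterus, in CPM on a log scale that differs between panels, with blue symbols for the 5 Arid1a f/f and red symbols for the 5 Ltf iCre/+ Arid1a f/f uteri, a symbol shape for each replicate number, and a bar at the mean of 5. Open symbols stand for libraries with 0 counts and are drawn at an arbitrary low position. Clca1, Clca3b and Cftr lie above every control in 5 of 5 mutants, while Scnn1a and Sgk1 lie on both sides of the controls.

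The 5 Clca genes belong to 1 cluster on chromosome 3 that runs over 370 kb from the start of Clca3a1 to the end of Clca2, all on the minus strand. In GRCm38 coordinates, with gene models of GENCODE M21, Clca3a1 (ENSMUSG00000056025) lies at chr3:144729677-144760977, Clca3a2 (ENSMUSG00000028262) at chr3:144796559-144819494 and Clca3b (ENSMUSG00000037033) at chr3:144822623-144849357. Clca1 (ENSMUSG00000028255) follows at chr3:145003817-145032776 and Clca2 (ENSMUSG00000036960) at chr3:145070263-145099443. The first 3 are recent copies of each other, which bears on how their reads can be assigned. The coding sequences of Clca3a1 and Clca3a2, 2709 bases each, were identical at 97.1% of positions, and that of Clca3b matched either at 87.0% of aligned positions. Clca1 and Clca2 matched each other at 59.8%. The window of 90 coding bases with the most differences between Clca3a1 and Clca3a2, in exon 5 of all 3 genes and at coding positions 558 to 647, shows how such copies are told apart by short reads. It lies at chr3:144755242-144755331 in Clca3a1, at chr3:144813965-144814054 in Clca3a2 and at chr3:144844536-144844625 in Clca3b, and is written on the minus strand with capitals where a base differs from Clca3a1, at 13 positions in Clca3a2 and 24 in Clca3b.
Clca3a1: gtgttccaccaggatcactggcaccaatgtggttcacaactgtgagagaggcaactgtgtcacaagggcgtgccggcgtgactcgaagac
Clca3a2: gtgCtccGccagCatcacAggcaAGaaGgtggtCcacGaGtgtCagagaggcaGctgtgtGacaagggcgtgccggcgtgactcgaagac
Clca3b: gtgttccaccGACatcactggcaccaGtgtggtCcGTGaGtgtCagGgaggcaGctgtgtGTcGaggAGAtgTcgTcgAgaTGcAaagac
Elsewhere the copies are closer, and the longest stretch identical in Clca3a1 and Clca3a2 was 242 bases. Of the 2660 runs of 50 coding bases in Clca3a1, the read length of these libraries, 829 (31.2%) also occurred in transcripts of Clca3a2 or Clca3b. The share was 31.1% for Clca3a2 and 5.61% for Clca3b. Reads from these stretches cannot be placed by sequence alone unless their mate can. The paper names the GeneCounts mode of STAR, which counts only uniquely mapped reads, so reads that could not be placed were left out. This would make Clca3a1 and Clca3a2 too low. The size of the loss was not tested, so the values of both genes are uncertain. Clca1, Clca2, Cftr and the 3 Scnn1 genes shared no such run with a transcript of another gene, and Sgk1 shared 5.

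Clca1 was at 1.38, 2.87, 1.44, 3.15 and 3.98 CPM in control replicates 1 to 5. In mutant replicates 1 to 5 it was at 175, 22.8, 17.9, 65.1 and 200.1 CPM. The lowest mutant was thus well above the highest control, and replicates 1 and 5 stood far above the other mutants. The fitted log2 fold change was 5.23 ± 0.74 (SE), and the means were 2.57 ± 1.13 and 96.2 ± 85.9 CPM (SD, n = 5). These levels rest on 92 to 277 counts per control and 1092 to 13829 counts per mutant.

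Clca3b was barely detected in the controls, at 3 to 18 counts per library or 0.0470 to 0.256 CPM. In the mutants it was at 38.8, 1.06, 3.79, 15.6 and 342 CPM for replicates 1 to 5. Every mutant was above every control, yet the mutants spanned a 321-fold range with replicate 5 at the top and replicate 2 at the bottom. The log2 fold change was 9.03 ± 1.67, and without mutant replicate 5 it was 6.59.

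Clca3a2 was at 0.196, 0.962, 0.611, 0.469 and 0.560 CPM in the controls and at 12.9, 0.659, 1.01, 4.28 and 97.0 CPM in the mutants. Mutant replicate 2 lay within the control range, replicate 3 just above it, and replicates 1, 4 and 5 clearly above it. Its log2 fold change of 5.37 ± 1.31 came to 3.07 without mutant replicate 5. The order of the mutants (5, 1, 4, 3, 2) was the same for Clca3a2 as for Clca3b.

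Clca3a1, known as an antigen of lymphatic endothelium, went the other way. It was at 15.5, 28.4, 29.2, 19.9 and 28.1 CPM in the controls. In the mutants it was at 6.10, 7.84, 8.26, 7.77 and 20.7 CPM, below every control in 4 of 5 and inside the control range in replicate 5. The log2 fold change was -1.26 ± 0.32, and without mutant replicate 5 it was -1.69. Mutant replicate 5 was also the uterus with the highest Clca3a2 and Clca3b. How many of its Clca3a1 counts came from those copies was not tested.

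Clca2, known from keratinised epithelia, was at 14.7, 8.88, 10.3, 9.54 and 8.02 CPM in the controls and at 3.25, 5.27, 7.08, 5.98 and 2.86 CPM in the mutants. The genotypes did not overlap, and replicates 1 and 5, highest for Clca1, were the lowest mutants for Clca2. For Clca2 the log2 fold change was -1.07 ± 0.27.

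Levels of different genes can be set beside each other only per length, here as CPM per kb of merged exons. On that scale the 5 Clca genes together came to 9.29 ± 1.29 in the controls and 58.8 ± 73.9 in the mutants (SD, n = 5). In mutant replicates 2 and 3 the sum was 9.67 and 9.75 CPM per kb, inside the control range of 7.62 to 10.2, while in replicates 1, 4 and 5 it was 63.4, 26.2 and 185. What differed in all mutants was the makeup of that sum. Clca3a1 and Clca2 made up 90.7% ± 3.40 of it in the controls and 17.8% ± 16.1 in the mutants, with a lowest control of 87.4% and a highest mutant of 37.3%. Clca1 alone made up 7.30% ± 3.03 in the controls and 55.7% ± 17.6 in the mutants, and Clca3b 0.507% ± 0.300 and 21.1% ± 19.9. In mutant replicate 5 Clca3b was the leading family member, with 55.0% of the sum. The shares are approximate, since lengths were not corrected for stretches that the copies have in common. Such stretches held 31.2% of the 50-base coding runs of Clca3a1, 31.1% of Clca3a2 and 5.61% of Clca3b.

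**Figure D2:**
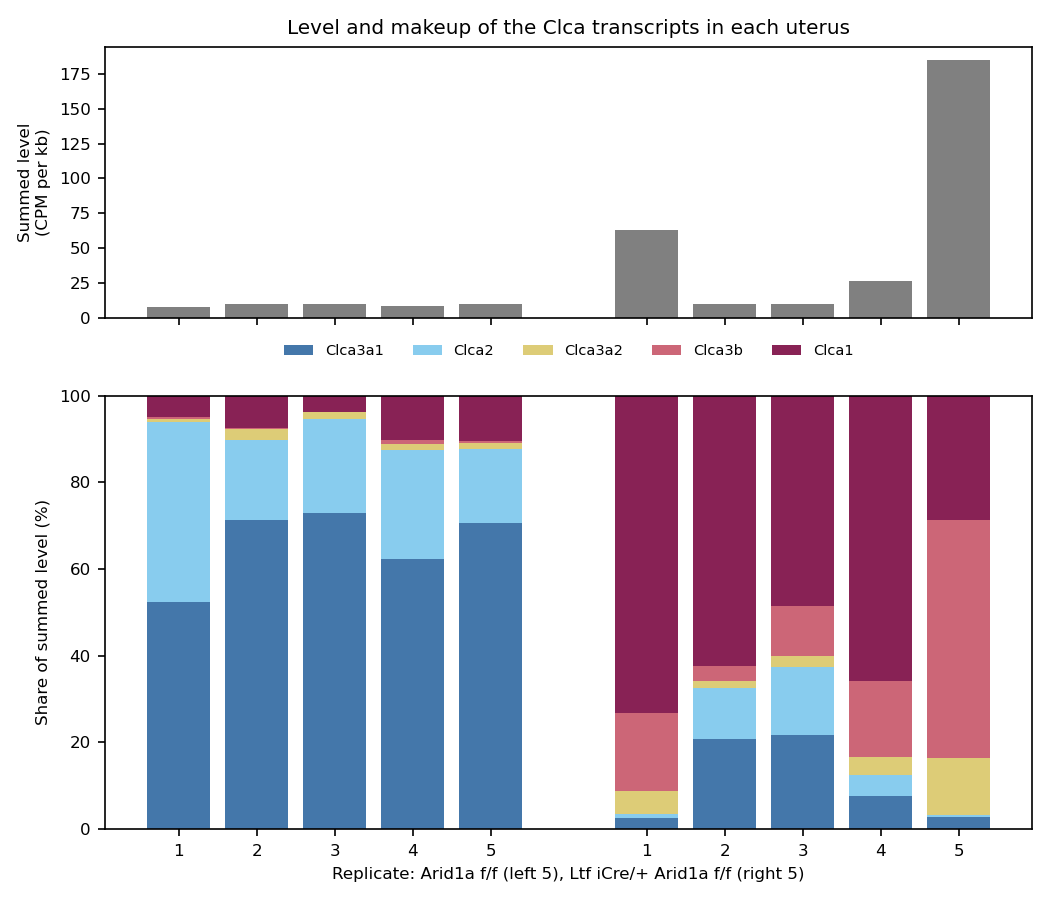
Summed level of the 5 Clca genes in each uterus in CPM per kb (upper panel, grey bars) and the percentage of that sum taken by each gene (lower panel, stacked colours), with the 5 Arid1a f/f uteri on the left and the 5 Ltf iCre/+ Arid1a f/f uteri on the right. Clca3a1 and Clca2 fill at least 87.4% of every control bar and at most 37.3% of every mutant bar.

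The other genes of the cluster were all but silent in both genotypes. Clca4a and Clca4b had 0 counts in every control and no more than 2 and 4 in any mutant, and neither could be tested. The pseudogene Clca4c-ps reached 3 counts among the controls and 11 among the mutants, and was not past the threshold (log2 fold change 1.94 ± 0.88, adjusted p = 0.190). The genes overlapping Clca3a1, Clca3a2 and Clca3b on the other strand (Gm34866, Gm43240 and the pseudogene Gm16215) had at most 5, 1 and 0 counts in any library. The genes on either side of the cluster are of other families. Sh3glb1, a membrane curvature protein, was at 185 ± 9.36 and 195 ± 30.9 CPM (log2 fold change 0.07 ± 0.11, adjusted p = 0.721). Odf2l, a centriole protein, rose from 35.9 ± 3.95 to 46.2 ± 4.20 CPM (log2 fold change 0.36 ± 0.10, adjusted p = 0.0410), a call that was kept by 2 of the 10 refits on 9 libraries. Among the 5 expressed Clca genes, the 2 that were lower in the mutants sit at the ends of the cluster and the 3 that were higher sit between them.

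**Figure D3:**
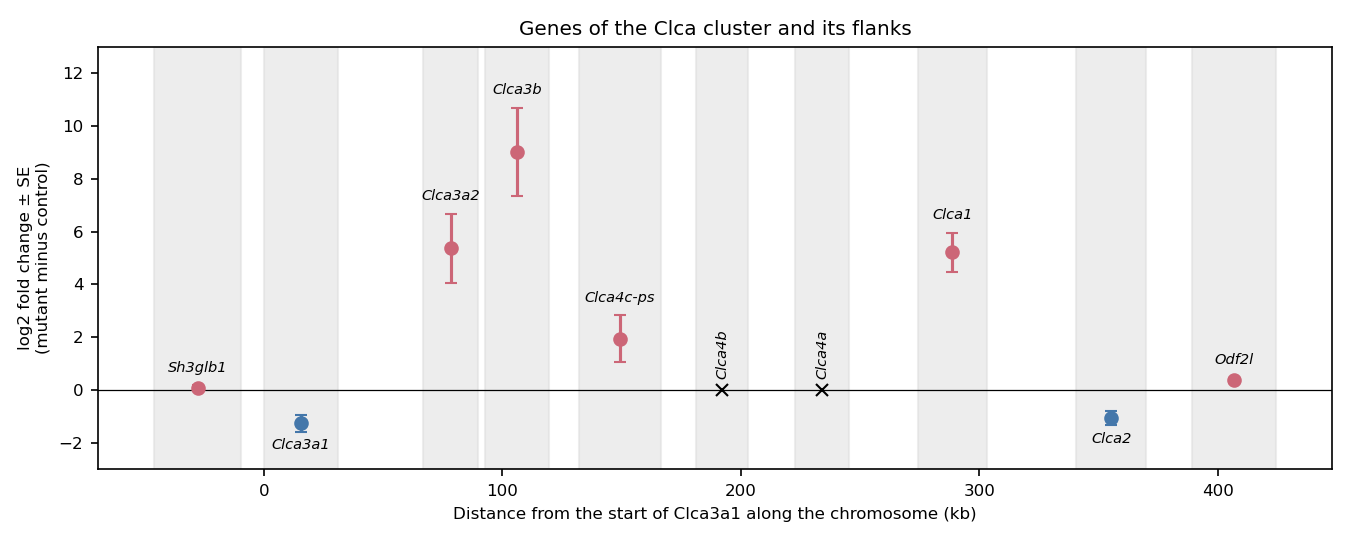
Genes of the Clca cluster and the gene on either side, placed by distance in kb from the start of Clca3a1 (grey bands mark each gene's extent), against the log2 fold change of mutant minus control with its SE. Crosses at 0 mark Clca4b and Clca4a, which had too few counts to be tested. Clca3a2, Clca3b and Clca1 stand between 5.23 and 9.03, and Clca3a1 and Clca2 at -1.26 and -1.07.

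Cftr (ENSMUSG00000041301, chr6:18170687-18322768, plus strand) was at 3.72, 1.58, 1.72, 5.50 and 2.30 CPM in the controls. In the mutants it was at 72.6, 23.3, 13.4, 19.7 and 71.1 CPM. The genotypes were far apart, with the same pair of mutants (replicates 1 and 5) on top as for Clca1. On the log2 scale the fold change was 3.75 ± 0.57, and leaving out any 1 library gave 3.42 to 4.10. The means were 2.96 ± 1.65 and 40.0 ± 29.3 CPM (SD, n = 5).

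Of 31 other genes for chloride and bicarbonate channels and exchangers 30 could be tested, and 4 passed the threshold, 2 in each direction. The median log2 fold change over the 30 was -0.15. Ano9, of the TMEM16 family of channels and scramblases, rose from 2.54 ± 0.47 to 21.4 ± 16.0 CPM (log2 fold change 3.08 ± 0.43, adjusted p = 0.00232) and was above every control in 5 of 5 mutants. Slc26a9, an epithelial chloride transporter that works beside CFTR, rose from 0.134 ± 0.0819 to 3.42 ± 5.37 CPM (log2 fold change 4.66 ± 1.14, adjusted p = 0.0265), above every control in 4 of 5, and its log2 fold change was 2.97 without mutant replicate 5, with the call kept in 6 of 10 fits without 1 library. Slc4a7, a sodium bicarbonate cotransporter, fell by 0.38 ± 0.08 on the log2 scale (adjusted p = 0.0109), and Clcn6, an endosomal chloride and proton exchanger, fell by 0.67 ± 0.16 (adjusted p = 0.0240). Slc26a4, pendrin, was at 296 CPM in mutant replicate 5 and at no more than 1.16 CPM in any other library, and did not pass (adjusted p = 0.0651). Ano1, the calcium-activated chloride channel that CLCA1 is known to stabilise, was at 108 to 141 CPM in the controls and at 47.7 to 123 CPM in the mutants (log2 fold change -0.25 ± 0.21, adjusted p = 0.507).

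Among 23 genes that regulate or anchor CFTR, 2 rose and 2 fell, with a median of -0.10. Slc9a3r1, the scaffold NHERF1 that binds CFTR, rose from 29.4 ± 3.57 to 50.5 ± 14.0 CPM (log2 fold change 0.78 ± 0.17, adjusted p = 0.0164), and Ezr, ezrin, which links membrane proteins to actin, from 174 ± 20.6 to 268 ± 15.5 CPM (log2 fold change 0.63 ± 0.09, adjusted p = 0.00335). Slc9a3r2, the related scaffold NHERF2, fell by 0.67 ± 0.08 (adjusted p = 0.00161) and Adcy9, an adenylyl cyclase, by 0.60 ± 0.17 (adjusted p = 0.0497). The Adcy9 call was lost with no filter on low counts (adjusted p = 0.0553) and in 9 of 10 fits without 1 library. With a replicate block the calls of Slc9a3r1 (adjusted p = 0.0604) and Adcy9 (adjusted p = 0.0818) were lost. Prkaca, a catalytic subunit of protein kinase A, was at 81.0 to 105 CPM in the controls and at 65.1 to 92.0 CPM in the mutants (adjusted p = 0.317).

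The sodium channel subunits showed no common difference. Scnn1a, the alpha subunit (ENSMUSG00000030340, chr6:125320659-125344943, plus strand), was at 10.8, 6.29, 6.97, 8.66 and 6.69 CPM in the controls. In the mutants it was at 3.40, 16.5, 17.6, 21.4 and 5.53 CPM. Replicates 2, 3 and 4 were above every control and replicates 1 and 5 below every control, so no mutant lay inside the control range. The fitted log2 fold change of 0.71 ± 0.43 reflects the group means, 7.88 ± 1.85 and 12.9 ± 7.95 CPM (SD, n = 5), and does not show these opposite positions.

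Scnn1b, the beta subunit (ENSMUSG00000030873, chr7:121865038-121918514, plus strand), was at 28.5, 12.8, 18.3, 24.2 and 19.3 CPM in the controls and at 2.31, 20.0, 19.7, 19.6 and 23.0 CPM in the mutants. Replicate 1 stood below every control and the other 4 mutants lay inside the control range. Its log2 fold change was -0.28 ± 0.45, and without mutant replicate 1 it was -0.01. Scnn1b was the most abundant subunit in the controls, at 7.83 ± 2.28 CPM per kb against 1.91 ± 0.449 for Scnn1a. The ratio of Scnn1a to Scnn1b, both in CPM per kb, was 0.221 to 0.313 in the controls and 0.153 to 0.941 in the mutants, above every control in replicates 1 to 4 and below every control in replicate 5.

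Scnn1g, the gamma subunit (ENSMUSG00000000216, chr7:121734479-121768475, plus strand), had 2, 6, 4, 7 and 13 counts in the controls. In the mutants it had 1, 0, 0, 3 and 171 counts. At 0.0280 to 0.187 CPM in the controls it was near the limit of detection, and only mutant replicate 5, at 2.47 CPM, held a clear signal. The fitted log2 fold change of 2.45 ± 1.42 turned to -2.44 without that library, so the gene has no direction common to the mutants.

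Sgk1 (ENSMUSG00000019970, chr10:21882184-21999903, plus strand), the kinase that keeps the sodium channel at the surface, was at 61.8, 62.0, 56.1, 75.2 and 66.6 CPM in the controls. In the mutants it was at 36.6, 167, 82.8, 133 and 57.8 CPM. Replicates 2, 3 and 4 were above every control, replicate 1 below every control and replicate 5 inside the control range. Against the control range these positions matched those of Scnn1a except in replicate 5, which was below every control for Scnn1a. The controls spanned a 1.34-fold range and the mutants a 4.55-fold range. For Sgk1 the log2 fold change was 0.57 ± 0.33.

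**Figure D4:**
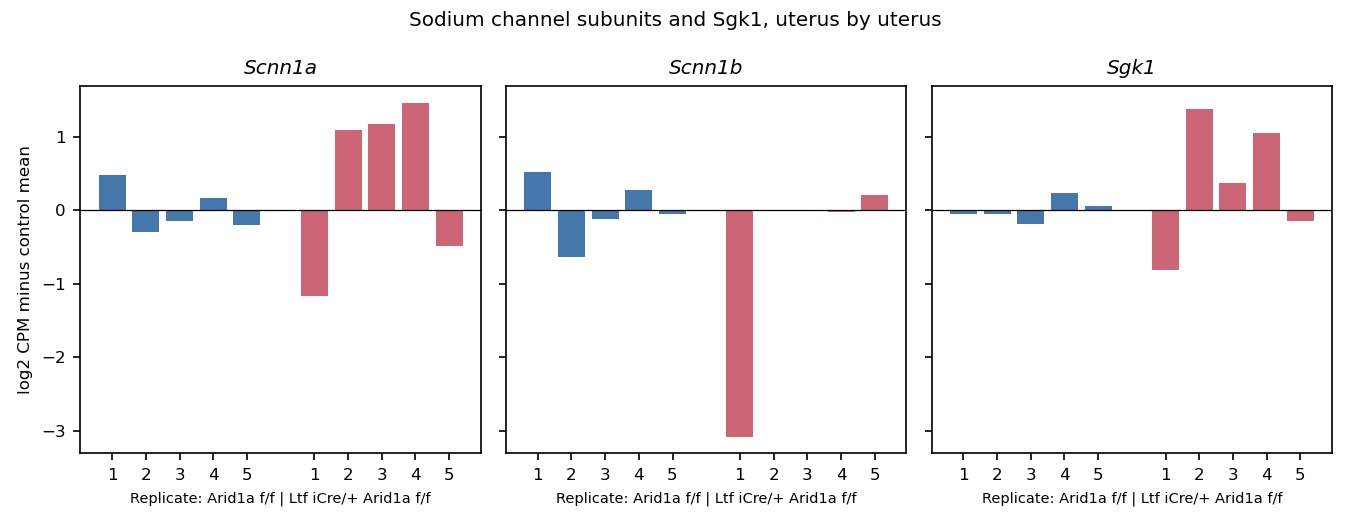
Log2 CPM of Scnn1a, Scnn1b and Sgk1 in each uterus minus the mean of the 5 controls, blue bars for Arid1a f/f and red bars for Ltf iCre/+ Arid1a f/f. Bars for mutant replicates 2, 3 and 4 point up for Scnn1a and Sgk1, bars for replicate 1 point down in all 3 panels, and the Scnn1b bars of mutant replicates 2 to 5 lie close to 0.

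Per kb, the order of the 10 genes in the controls was Sgk1 (13.1 ± 1.45), Scnn1b (7.83 ± 2.28), Clca3a1 (6.21 ± 1.58), Clca2 (2.22 ± 0.564), Scnn1a (1.91 ± 0.449), Clca1 (0.679 ± 0.299), Cftr (0.382 ± 0.213), Clca3a2 (0.141 ± 0.0695), Clca3b (0.0449 ± 0.0233) and Scnn1g (0.0308 ± 0.0198), in CPM per kb with SD over 5 uteri. The ranges of neighbours in that order overlapped for Scnn1b and Clca3a1, for Clca2 and Scnn1a, for Clca1 and Cftr, for Cftr and Clca3a2, for Clca3a2 and Clca3b, and for Clca3b and Scnn1g. In the mutants Clca1 (25.5 ± 22.7) and Clca3b (23.9 ± 43.7) had higher means than Sgk1 (19.4 ± 10.9), the ranges of all 3 overlapped, and Sgk1 was the highest of the 3 in mutant replicates 2, 3 and 4. With the longest transcript as length Sgk1 came first, at 30.8 CPM per kb against 26.3 for Clca1 and 23.9 for Clca3b. Scnn1g was last in both genotypes, at 0.169 ± 0.368 CPM per kb in the mutants.

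Of 22 regulators of the sodium channel, 4 rose and 2 fell, with a median log2 fold change of -0.08. Tmprss4, a membrane serine protease, rose from 12.2 ± 1.58 to 46.6 ± 28.0 CPM (log2 fold change 1.94 ± 0.35, adjusted p = 0.00731), St14, matriptase, from 49.1 ± 6.10 to 132 ± 64.3 CPM (log2 fold change 1.43 ± 0.28, adjusted p = 0.0106) and Prss8, prostasin, from 23.2 ± 3.59 to 39.0 ± 8.68 CPM (log2 fold change 0.75 ± 0.17, adjusted p = 0.0194). Spint1, which inhibits matriptase and prostasin, rose from 23.7 ± 2.09 to 38.3 ± 2.66 CPM (log2 fold change 0.70 ± 0.09, adjusted p = 0.00162). Of the same kinds of gene in the list, the channel-activating protease gene Furin (log2 fold change 0.02 ± 0.14, adjusted p = 0.939) and the inhibitor gene Spint2 (0.44 ± 0.16, adjusted p = 0.107) did not pass. Nedd4l, the ligase that removes the channel from the surface, fell by 0.37 ± 0.08 (adjusted p = 0.0184), and Wnk4, a kinase of salt transport, by 0.65 ± 0.14 (adjusted p = 0.0170). The steroid receptors that drive Sgk1 and Scnn1a did not pass. Nr3c1, the glucocorticoid receptor, was at 108 to 122 CPM in the controls and at 79.4 to 112 CPM in the mutants (adjusted p = 0.167), and Nr3c2, the mineralocorticoid receptor, at 5.38 to 7.89 and 3.22 to 6.61 CPM (adjusted p = 0.227).

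Among 21 sodium, potassium and chloride carriers that power epithelial fluid movement, 20 could be tested, 3 rose and 1 fell, with a median of -0.02. The list holds 7 potassium channel genes, whose products can recycle potassium during chloride secretion, and 3 of them passed. Kcnq1 (log2 fold change 0.84 ± 0.17, adjusted p = 0.0117) and Kcnk1 (0.53 ± 0.12, adjusted p = 0.0214) were above every control in 5 of 5 mutants. Kcnn4 (1.82 ± 0.51, adjusted p = 0.0445) was at 2.66 to 3.54 CPM in the controls and at 21.2, 2.37, 4.38, 7.73 and 18.6 CPM in the mutants, with replicate 2 below every control, and its call held in 2 of 10 fits without 1 library. Kcne3, Kcnk5, Kcnj15 and Kcnj16 did not pass (adjusted p = 0.188, 0.232, 0.155 and 0.452), and Kcnj15 was below every control in 4 of 5 mutants. Slc12a7, a potassium and chloride cotransporter, fell by 0.47 ± 0.12 (adjusted p = 0.0330). Its call was kept in 3 of 10 fits without 1 library and lost with a replicate block (adjusted p = 0.0995). Slc12a2, the cotransporter that loads chloride into secreting cells, was at 208 to 255 CPM in the controls and 183 to 242 CPM in the mutants (adjusted p = 0.783). Fxyd4, a sodium pump subunit regulator, stood apart in the same 2 mutants as Clca1 and Cftr, at 7.56 and 5.15 CPM in replicates 1 and 5 against 115 to 178 CPM in the controls and 124 to 129 CPM in the other mutants (adjusted p = 0.472). Atp1b1, the sodium pump beta subunit, was likewise at 135 and 89.6 CPM in those 2 uteri and at 350 to 496 CPM in the controls (adjusted p = 0.349).

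**Figure D5:**
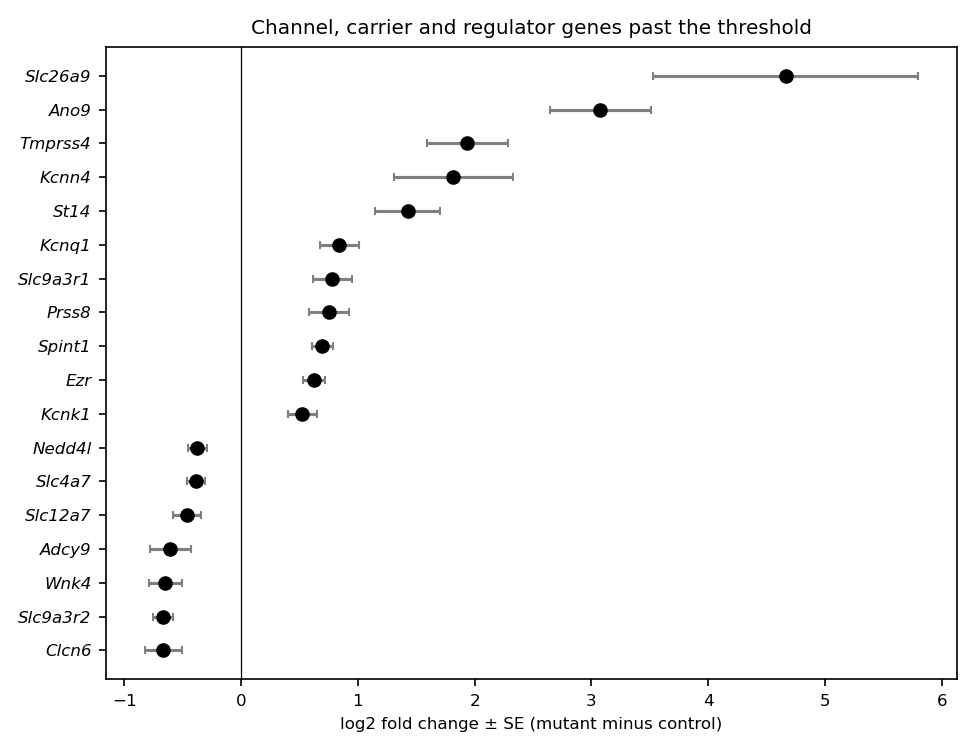
The 18 genes of the pathway lists that passed an adjusted p of 0.05, each with its log2 fold change of mutant minus control (dot) and SE (bar). Slc26a9, Ano9, Tmprss4, Kcnn4 and St14 lie above 1, and the 7 genes that fell lie between -0.67 and -0.37.

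Over the 5 pathway lists together, 18 of 96 genes tested passed (18.8%, against 9.70% of all genes), 11 higher and 7 lower. The median log2 fold change over the 96 was -0.09, against 0.03 for all genes. The lists are not random draws, and no test of this share was made.

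The epithelial markers that were higher in the mutants were 7 of the 10 listed (2 of 10 without control replicate 3), with a median log2 fold change of 0.84 over the list, among them Epcam (1.19 ± 0.32, adjusted p = 0.0370) and Krt7 (1.83 ± 0.38, adjusted p = 0.0140). The Epcam call held in 3 of 10 fits without 1 library and was lost with a replicate block (adjusted p = 0.0741). Krt18, Cldn3 and Cldn4 did not pass (adjusted p = 0.316, 0.558 and 0.0777), and Cldn3 had a negative fold change (-0.30 ± 0.29). Set against the summed epithelial level of its own uterus, Clca1 went from 2.55 ± 1.12 to 49.9 ± 39.7 CPM per 1000 epithelial CPM and Cftr from 2.89 ± 1.37 to 21.4 ± 11.8, both above every control in 5 of 5 mutants. Clca3b was also above every control in 5 of 5 on this scale, and Clca2 below in 5 of 5. Clca3a2, above every control in 4 of 5 mutants in CPM, was so in 3 of 5 on this scale. Clca3a1, which overlapped in CPM, was below every control in 5 of 5 when set against the epithelial sum. That sum was itself higher in every mutant, which lowers the ratio of any gene to it. The 5 of 5 for Clca3a1 and for Clca2 on this scale therefore adds nothing to their values in CPM. Sgk1 went from 64.4 ± 5.27 to 63.7 ± 42.0.

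Mucous cell markers were mixed. Of 10 listed, 6 could be tested and 2 rose, Fcgbp (1.99 ± 0.37, adjusted p = 0.00854) and Galnt12 (1.53 ± 0.29, adjusted p = 0.0102). The fold change was positive in 3 of the 6. Agr2 (-0.55 ± 0.33, adjusted p = 0.336) and Spdef (-0.36 ± 0.59, adjusted p = 0.755) were among those with a negative one. The summed level was 57.7 to 99.2 CPM in the controls and 151 to 544 CPM in the mutants. Most of that sum was Fcgbp, at 46.7 to 81.3 CPM in the controls and 132 to 503 CPM in the mutants. Muc5ac and Tff1, which define mucous cells of airway and stomach, had 0 counts in all 10 libraries, and Muc2, the goblet cell mucin of the gut, was under 1 CPM in each.

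The summed level of the neutrophil markers stood out in 1 uterus. It was 6.20 to 24.7 CPM in the controls, 13.1 to 23.6 CPM in mutant replicates 1 to 4 and 865 CPM in mutant replicate 5, where S100a8 was at 290.0 and S100a9 at 383 CPM. This was the uterus with the highest Clca3b, Clca3a2, Clca1, Scnn1g and Slc26a4. Of 9 neutrophil markers tested 1 passed, Ly6g (3.82 ± 0.96, adjusted p = 0.0294), which was at 0.0574 to 0.196 CPM in the controls and at 1.71, 0.372, 0.163, 0.247 and 5.32 CPM in the mutants, and none without control replicate 2, 3, 4 or 5. Clca1, Clca3b and Cftr were above every control in 5 of 5 mutants, and Ly6g in 4 of 5. Endothelial markers were lower, 5 of 9 past the threshold downward and 1 upward, with a summed level of 739 to 1027 CPM in the controls and 396 to 553 CPM in the mutants. Beside the lower Clca3a1 and Clca2, Cdh5 fell by 1.26 ± 0.20 (adjusted p = 0.00421) and Pecam1 by 0.93 ± 0.13 (adjusted p = 0.00273), while of 4 markers used for lymphatic vessels Lyve1, Prox1 and Flt4 were not past the threshold (adjusted p = 0.300, 0.691 and 0.189) and Pdpn rose (log2 fold change 0.67 ± 0.18, adjusted p = 0.0409). The part of these cell type differences in the Clca and Cftr values was not tested.

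Markers of other compartments were checked as well. Gland markers were summed at 76.0 to 122 CPM in the controls and 13.2 to 50.3 CPM in the mutants, with 1 of 6 past the threshold, Foxa2, which fell by 1.13 ± 0.19 (adjusted p = 0.00570). Oviduct markers came to 28.7 to 48.0 CPM and 4.69 to 17.6 CPM, with 2 of 5 lower, and stratified epithelium markers to 3.78 to 23.4 CPM and 2.77 to 13.8 CPM, with 1 of 7 lower and Krt6a at 0 in all libraries. Of 7 smooth muscle genes none passed in edgeR, 1 had an unadjusted p under 0.05 and 1 passed in DESeq2, and their sum was 6497 to 11407 CPM in the controls and 3398 to 9153 CPM in the mutants.

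For each member with a mean of at least 100 counts, the 3 genes with the most similar profile over the 10 uteri were found among 14591 genes, by the root mean square difference of log2 CPM after centring each gene on its mean. Clca1 was nearest to Gjb2, a gap junction protein (difference 0.562 on the log2 scale), then Wnt7b (0.580) and Entpd8 (0.657). Cftr was nearest to Klhl14 (0.458), Il1f8 (0.471) and Veph1 (0.524). Clca3b was nearest to Ltf (0.820), the lactoferrin gene, which was at 2.22 to 11.7 CPM in the controls and 23.6 to 2831 CPM in the mutants and in which 1 mutant allele carries the Cre, followed by Sftpd (1.21) and Il1f6 (1.25). Clca3a2 was nearest to Gm1965 (0.720), Steap1 (0.820) and Cfb (0.862). Clca2 was nearest to Tmod2 (0.203), the endothelial cadherin Cdh5 (0.211) and Exoc3l (0.214), and Clca3a1 to Pi16 (0.291), Dnah6 (0.352) and Sfrp4 (0.357). Scnn1a was nearest to Tmem108 (0.237), Slc25a33 (0.244) and Junos (0.293), Scnn1b to Rgs16 (0.354), Tmem132c (0.378) and Gm13652 (0.390), and Sgk1 to Rab15 (0.195), Arrdc3 (0.286) and Usp35 (0.309). A small difference is easier to reach for a gene that varies little, so these values rank neighbours within a gene and not between genes.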

How the data were processed

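The authors sequenced mRNA libraries of 10 uteri in pairs of 50-base reads, trimmed them with Trim Galore 0.6.4 and aligned them to GRCm38 with STAR 2.7.3a, whose gene counts they deposited as 1 matrix of raw counts per gene, without normalization. The strand setting and the annotation release are not given in the sources used here. Of 45706 identifiers, 45143 matched GENCODE M21. Genes averaging 1 count or more over the samples were fitted with genotype as the only term in edgeR 4.0.16 (TMM factors, quasi-likelihood F test, R 4.3.3) and adjusted by the Benjamini-Hochberg method at 0.05. SE is the absolute log2 fold change over the square root of F. Levels are CPM on TMM-scaled library sizes, and similarity of profiles used log2(CPM + 0.05). Coding sequences were aligned with Biopython 1.88. The replicates are separate uteri. The genes followed, the pathway and marker lists and the rules for naming genes were chosen with earlier results of these data known. From each pathway list, genes past the threshold with a mean of at least 100 counts were named, at most 6 in each direction. Genes named beside these were picked for their role or after their values were seen. Alternatives were DESeq2 1.42.0, other scalings and filters, a replicate block, and leaving out each library.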

Additional observations from a re-analysis of the deposited data

Results flagged for a closer look

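The 10 genes and the 18 pathway genes past the threshold gave 56 groups of 5 uteri over the 2 genotypes. In 8 groups a uterus had a gap to the nearest other above 0.71 of the group's range. About 1 in 20 groups of independent, normally distributed values would pass this cutoff. These were linear CPM of genes chosen or called by genotype, from the same 10 uteri, so the 8 are not weighed against that rate. Of these 8, 5 were values of mutant replicate 5: Clca3b at 342 CPM (the other mutants at 1.06 to 38.8), Clca3a2 at 97.0 CPM (0.659 to 12.9), Clca3a1 at 20.7 CPM (6.10 to 8.26), Scnn1g at 2.47 CPM (0 to 0.0436) and Slc26a9 at 12.9 CPM (0.118 to 2.59). Mutant replicate 1 stood low for Scnn1b, at 2.31 CPM where the other mutants were at 19.6 to 23.0, and for Slc4a7, at 83.0 CPM against 93.0 to 96.3. Control replicate 1 stood low for Clcn6, at 20.1 CPM against 32.5 to 36.3.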

How the results depend on the processing

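The 10 genes were chosen by this contrast, so their calls are counted here as a description of the fits and nothing is read from them. The count was 6 with DESeq2, with DESeq2 size factors, with plain library totals, with filterByExpr and with no filter on low counts. Without 1 library it was 3 to 6, with 3 when control replicate 2, 3 or 4 was left out and the same 3 genes (Clca1, Clca3b and Cftr) counted in every such fit. Clca2, Clca3a1 and Clca3a2 were counted in 5, 2 and 5 of the 10. Their log2 fold changes ranged over these fits from -1.25 to -0.91, from -1.69 to -1.12 and from 3.07 to 5.68, and the uncalled Scnn1g turned to -2.44 without mutant replicate 5. Pathway genes called ranged from 11 to 20 over the fits without 1 library, with the lowest count when control replicate 3 was left out. All 18 kept their direction and 11 passed in all 10. The others were Slc26a9, Clcn6, Kcnn4, Kcnk1, Slc12a7, Prss8 and Adcy9, with a highest adjusted p between 0.0523 for Prss8 and 0.106 for Adcy9. By list, the lowest such count was 2 of 4 for the anion channels (without control replicate 2, 3 or 4), 1 of 4 for the carriers (control replicate 3) and 2 of 7 for the epithelial markers (control replicate 3). Across all genes 2438 were called, 1204 to 2381 without 1 library and 4103 with DESeq2, and the cause was not tested. After centring within each genotype, same-numbered uteri correlated at 0.05, 0.10, -0.20, 0.05 and 0.21 across 14591 genes. Such values cannot settle whether the uteri were paired, and the paper states that littermates were compared where possible. With a replicate block 1704 genes, 14 pathway genes and 5 of the 10 were called, and Clca3a2 was lost. The pathway genes lost with the block were Slc9a3r1, Slc12a7, Kcnn4 and Adcy9. With longest transcripts as lengths, the order of levels was kept for all 10 genes in the controls and for 7 in the mutants. Genes under about 0.05 CPM, as Scnn1g in 5 of the 10 uteri, could not be compared at this depth.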
